A study of Mus musculus with 8 samples.

Results

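Glycolysis turns glucose into pyruvate and lactate in the cytosol, and the hypoxia-inducible factor (HIF) raises the transcription of many of its genes when oxygen is short. The 36 genes described here are the glucose and lactate transporters, the glycolytic enzymes, HIF-1α, its prolyl hydroxylases and HIF target genes outside glycolysis. They were chosen by symbol, with earlier results of these data known. All 36 were found among the 17364 genes of the files, and all 36 passed the filter on low counts that left 12462 tested genes. The libraries hold poly(A)-selected RNA of bone-marrow-derived macrophages, which are mouse bone marrow cells grown into macrophages in culture. Of the 8 libraries, 4 came from Sept2C111A mice and 4 from wild-type (WT) mice, and all 8 cultures had received TNF-α (24 h, 30 ng/ml), so the untreated state is not part of the comparison. The Sept2C111A allele name states a cysteine-to-alanine change in septin 2, a GTP-binding protein of the cytoskeleton. The labels name neither strain nor age of the mice, nor whether each library came from its own mouse. The p-values therefore measure the spread between these libraries, which may be technical.

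HIF-1α is made all the time and, when oxygen is present, is hydroxylated by prolyl hydroxylases and degraded, so its activity is set largely at the protein level. In macrophages, inflammatory signals can also stabilise HIF-1α, and activated macrophages are known for high glycolysis and lactate release. Counts of mRNA show neither the HIF-1α protein nor the flow of glucose.

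Each library held between 19543973 and 21288521 reads assigned to genes. Levels are in CPM, the count of a gene scaled to a common library size, on library sizes scaled by trimmed mean of M values, with scaling factors of 0.924 to 1.03. The biological coefficient of variation was 0.138 among Sept2C111A and 0.0604 among WT libraries. Sept2C111A libraries 2 and 3 stood apart from libraries 1 and 4 of that genotype on the first principal component, which held 45.1% of the variance. Sept2 itself (listed as Septin2) measured 188 ± 18.7 CPM in Sept2C111A and 226 ± 7.43 CPM in WT libraries (mean ± SD, n = 4 each, as in all values with ±), with an adjusted p of 0.063 by edgeR's quasi-likelihood test. Its count does not show the base change. The macrophage markers, 14 genes such as Adgre1 and Csf1r, summed to 31290 to 36040 CPM in Sept2C111A and 33604 to 34832 CPM in WT libraries. Of these 14, Fcgr1, a high-affinity IgG receptor gene, rose (192.6 ± 39.95 CPM in Sept2C111A and 84.9 ± 11.3 CPM in WT libraries, edgeR adjusted p 0.0011) and 0 fell. At an unadjusted p under 0.05, 6 lay higher and 4 lower. By edgeR, 6.46% of all tested genes had an adjusted and 24.8% an unadjusted p under 0.05. Within the sum, members moved in opposite directions, 3 higher and 2 lower without overlap between genotypes. Lyz2 measured 12366 ± 897 CPM in Sept2C111A and 14365 ± 498 CPM in WT libraries, and C1qc 3618 ± 288 and 3065 ± 64.7 CPM.

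The gene of the main glucose importer (Slc2a1), the gene of the lactate exporter (Slc16a3) and the oxidoreductase gene Ero1a had less RNA in Sept2C111A than in WT macrophages. These 3 of the 36 genes fell, 0 rose and 33 did not pass edgeR's quasi-likelihood test at an adjusted p under 0.05. Among all tested genes 6.46% were called, 3.03% lower and 3.43% higher in Sept2C111A. At an unadjusted p under 0.05, 15 of the 36 lay lower and 2 higher, against 12.5% and 12.3% of all tested genes (24.8% in either direction). The number of calls depended on the tool and the libraries. DESeq2 called 10 of the 36 lower and 0 higher, where it called 5.94% of all its tested genes lower. With sample weights, limma voom called 10 lower and 1 higher (Mxi1), beside 5.44% of all tested genes lower. Without Sept2C111A library 4, edgeR called 8 lower, beside 7.81% of all tested genes lower. Only Slc2a1 was called without Sept2C111A library 2, or without WT library 1, 3 or 4. The log2 fold change was negative for 31 of the 36 (86.1%) and for 48.2% of all tested genes. Its median was -0.16 over the 36 genes and 0.01 over all tested genes. The 4 Sept2C111A libraries lay below the 4 WT libraries without overlap for 11 of the 36 (30.6%) and above them for 3. All tested genes gave 8.47% lower and 8.47% higher (16.9% in all). Since the list was chosen with earlier results of these data known, these contrasts with all tested genes are descriptions and not tests. The call of Slc2a1 held under all alternatives tried, while those of Slc16a3 and Ero1a were lost when any of several single libraries was left out. In RNA of whole cultures, fewer cells of a type and less RNA per cell cannot be told apart.

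**Figure D1:**
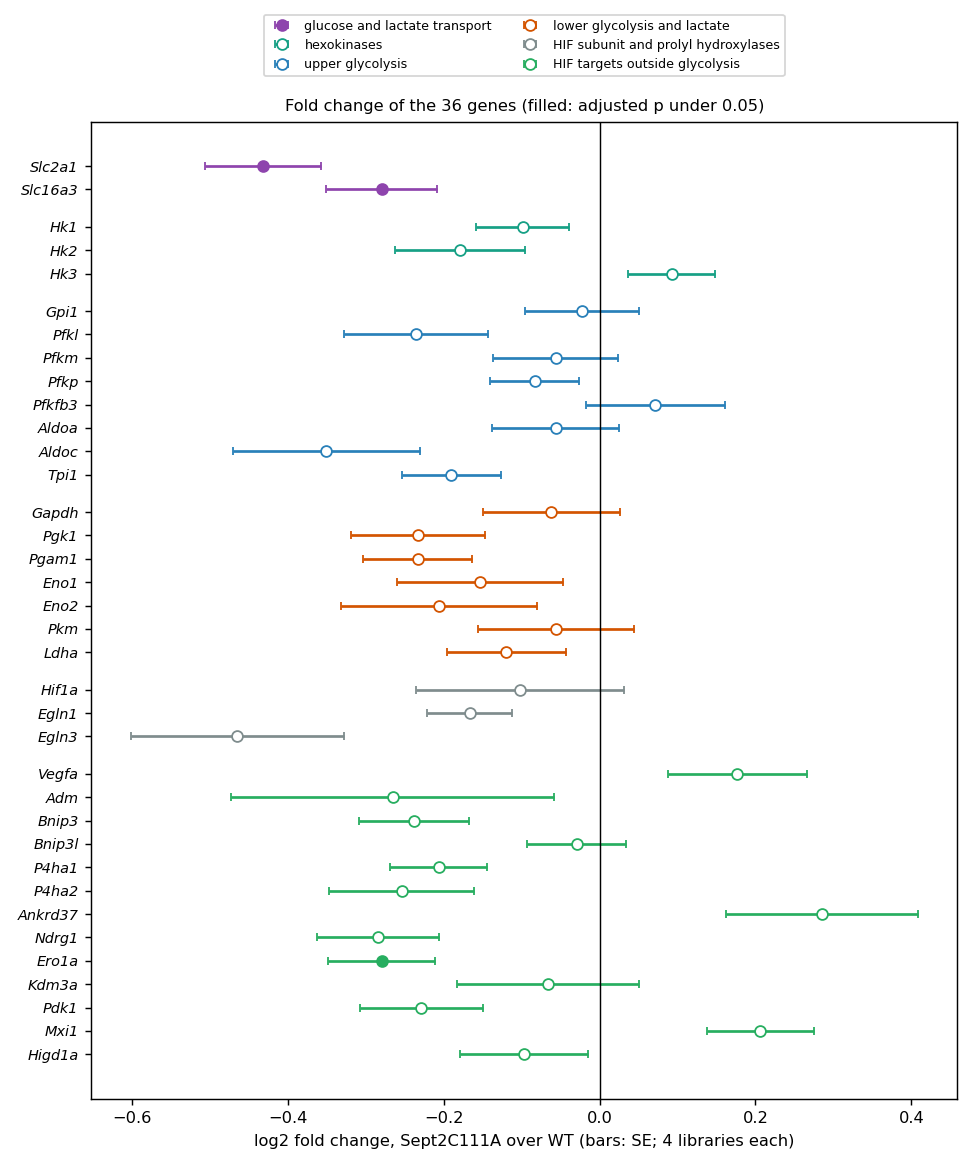
Log2 fold change of Sept2C111A over WT for each of the 36 genes, grouped by role, with the SE from edgeR (4 libraries each). Filled points mark adjusted p under 0.05, reached by Slc2a1, Slc16a3 and Ero1a, and 31 of the 36 points lie left of 0.

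Both transport genes fell. Slc2a1 encodes GLUT1, the transporter through which macrophages take up most of their glucose, and lies on chromosome 4 at 119108745 to 119137330 (GRCm38, the mm10 build). It measured 285, 247, 238 and 258 CPM in Sept2C111A libraries 1 to 4, against 377, 350, 335 and 324 CPM in WT libraries 1 to 4. The lowest WT library lay above the highest Sept2C111A library. Slc2a1 fell by 25.9% (log2 fold change -0.43, SE 0.074), with an edgeR adjusted p of 0.0078, and this was the smallest adjusted p among the 36 genes. Over all alternatives that refitted the data, its log2 fold change ran from -0.48 to -0.35 and its adjusted p stayed at 0.038 or less. Slc16a3 encodes MCT4, which carries lactate out of cells with high glycolysis, and lies on chromosome 11 at 120948484 to 120959000. It measured 459, 425, 451 and 391 CPM in Sept2C111A libraries, against 563, 501, 523 and 509 CPM in WT libraries. Here too the groups did not overlap, and Sept2C111A library 4 was the lowest. Slc16a3 fell by 17.6% (log2 fold change -0.28, SE 0.071; edgeR adjusted p 0.041). Its call was lost without Sept2C111A library 2 or without any single WT library (edgeR adjusted p 0.074 to 0.149), and without Sept2C111A libraries 2 and 3 together (0.0585).

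The promoter windows of the 3 genes that fell are printed because HIF binds a short core sequence, and a reader can see where its letters stand before the start site. Windows of 300 bases run from 250 bases before a RefSeq start site to 50 bases after it, on build GRCm38.p6, and lie at chr4:119108495-119108794 on the plus strand for Slc2a1, chr11:120948817-120949116 on the plus strand for Slc16a3 and chr14:45318523-45318822 on the minus strand for Ero1a. Each is written 5′ to 3′ along the gene, with ACGTG or GCGTG on either strand in capitals.
Slc2a1: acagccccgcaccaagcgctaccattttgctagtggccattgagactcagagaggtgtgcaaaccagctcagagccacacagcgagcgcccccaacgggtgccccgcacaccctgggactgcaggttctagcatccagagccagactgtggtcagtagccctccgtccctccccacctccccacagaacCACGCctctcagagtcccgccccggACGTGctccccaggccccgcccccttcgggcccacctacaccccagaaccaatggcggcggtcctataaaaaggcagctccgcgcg
Slc16a3: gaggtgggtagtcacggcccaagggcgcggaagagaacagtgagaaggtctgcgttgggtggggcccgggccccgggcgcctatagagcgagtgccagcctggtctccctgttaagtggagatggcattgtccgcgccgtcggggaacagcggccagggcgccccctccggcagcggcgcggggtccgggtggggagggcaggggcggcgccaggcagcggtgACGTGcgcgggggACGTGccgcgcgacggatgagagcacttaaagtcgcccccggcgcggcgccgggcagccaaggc
Ero1a: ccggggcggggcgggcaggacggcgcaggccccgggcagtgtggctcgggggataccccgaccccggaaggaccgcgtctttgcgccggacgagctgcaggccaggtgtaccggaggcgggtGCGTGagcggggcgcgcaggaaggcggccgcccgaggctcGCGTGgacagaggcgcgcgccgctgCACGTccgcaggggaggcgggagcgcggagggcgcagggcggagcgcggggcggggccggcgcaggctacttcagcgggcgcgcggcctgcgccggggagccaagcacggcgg

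Slc2a1 held GCGTG on the opposite strand, read here as CACGC from base -61, and ACGTG from base -36, counted from the start site. Slc16a3 held ACGTG at -27 and at -14, and Ero1a held GCGTG at -128 and -88 and ACGTG on the opposite strand, read as CACGT, at -63. RefSeq windows were matched by symbol for 34 of the 36 genes, 12 of which had more than 1 window, and Bnip3l and Ndrg1 had none. Counting overlapping matches on both strands separately, 40 of the 52 windows (76.9%) held the core at least once, as did 61.0% of the 12816 windows of tested genes and 43.8% of all 32851 windows. The windows of the 36 genes had a mean GC content of 62.2% and those of tested genes 60.4%. The 3 printed windows were richer in GC, at 65.3% for Slc2a1, 73.3% for Slc16a3 and 80.3% for Ero1a. The one RefSeq window of Slc16a3 surrounds a start site inside the span of the gene given above. A match is a string of letters and not a measured binding site.

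The 3 hexokinases, which trap glucose in the cell as glucose 6-phosphate, did not pass the test, and 0 of them had an unadjusted p under 0.05 or were called by DESeq2 or limma voom with sample weights. Hk1, a widely expressed form that binds mitochondria and the most abundant of them by CPM, measured 149, 160, 157 and 145 CPM in Sept2C111A, against 170, 155, 166 and 162 CPM in WT libraries. Its groups overlapped, since WT library 2 lay below 2 of the Sept2C111A libraries. Hk2, the inducible form and a HIF target, measured 59.6 ± 7.21 CPM in Sept2C111A and 67.5 ± 1.02 CPM in WT libraries, with an edgeR adjusted p of 0.21. Without Sept2C111A library 4, in which Hk2 stood at 67.7 CPM, its log2 fold change was -0.24 and passed (edgeR adjusted p 0.045). Hk3, a form of myeloid cells, measured 134, 127, 127 and 131 CPM in Sept2C111A, against 125, 115, 125 and 121 CPM in WT libraries. All 4 Sept2C111A libraries lay above all 4 WT libraries for Hk3, by a log2 fold change of 0.09 (edgeR adjusted p 0.33). Per kilobase of transcript, Hk3 made up 46.4 ± 1.06% of the hexokinase level in Sept2C111A and 42.8 ± 0.306% in WT libraries, with ranges of 45.0% to 47.4% and 42.5% to 43.1%. A share within a library does not depend on the scaling of that library, and this one was not tested.

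**Figure D2:**
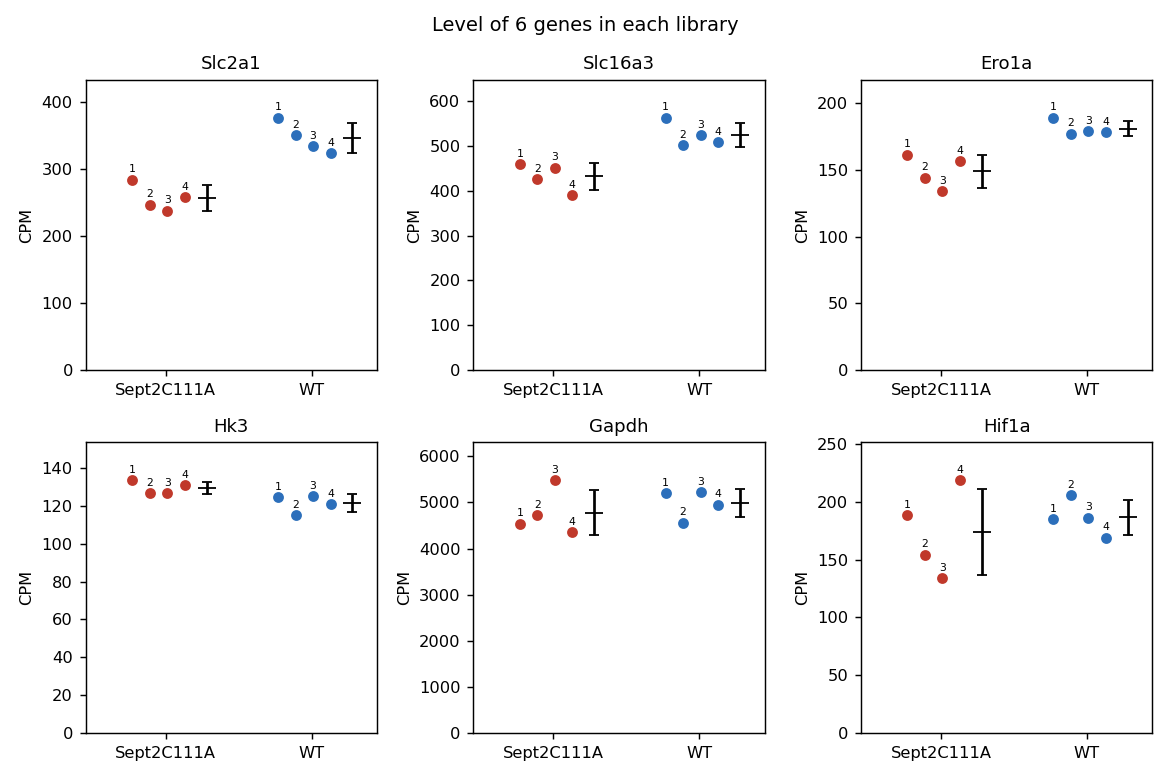
Level of 6 genes in each library in CPM, with Sept2C111A to the left of WT; points are libraries, numbered 1 to 4, and bars are mean and SD. Slc2a1, Slc16a3 and Ero1a lie lower in every Sept2C111A library, Hk3 lies slightly higher, and Gapdh and Hif1a overlap between the genotypes.

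In the first steps after glucose is trapped, 0 of 8 genes were called by edgeR, DESeq2 called 1 (Tpi1) and limma voom with sample weights 2 (Pfkl and Tpi1), and 3 had an unadjusted p under 0.05, all lower. Aldoa, the aldolase that splits the hexose and the most abundant of the 8, measured 2684, 2710, 3190 and 2562 CPM in Sept2C111A, against 2986, 2710, 2941 and 2951 CPM in WT libraries. Sept2C111A library 3 was the highest of all and library 4 the lowest, and the log2 fold change of -0.06 had a 95% interval of -0.26 to 0.14. Pfkl, the liver-type subunit of phosphofructokinase that sets the pace of the pathway, measured 352 ± 46.7 CPM in Sept2C111A and 414 ± 19.2 CPM in WT libraries (edgeR adjusted p 0.15). It reached 403 CPM in Sept2C111A library 3 and 290 CPM in library 4, and without Sept2C111A libraries 2 and 3 its log2 fold change of -0.36 passed (edgeR adjusted p 0.035). The other subunits, Pfkp at 111 ± 2.35 and 118 ± 5.46 CPM and Pfkm at 13.0 ± 0.729 and 13.5 ± 0.778 CPM in Sept2C111A and WT libraries, were lower in abundance. Per kilobase, Pfkl supplied 74.8 ± 2.39% of the 3 subunits in Sept2C111A and 77.0 ± 0.631% in WT libraries.

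Pfkfb3, whose product makes the activator fructose 2,6-bisphosphate, measured 96.7 ± 12.2 CPM in Sept2C111A and 92.1 ± 4.44 CPM in WT libraries, and its lowest Sept2C111A value, 79.8 CPM, was in library 3. Gpi1, the isomerase between the first hexose phosphates, measured 1147 ± 90.5 and 1164 ± 51.1 CPM in Sept2C111A and WT libraries. Tpi1, which interconverts the triose phosphates, measured 661 ± 35.1 CPM in Sept2C111A and 754 ± 26.5 CPM in WT libraries without overlap (edgeR adjusted p 0.096). The minor aldolase gene Aldoc, known from brain, measured 8.29 ± 1.23 and 10.6 ± 0.867 CPM, also without overlap (edgeR adjusted p 0.10).

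In the second part of the pathway, from glyceraldehyde 3-phosphate to lactate, all 7 genes had a negative log2 fold change and 0 were called by edgeR, with 2 at an unadjusted p under 0.05. DESeq2 called 1 of them, Pgam1, and limma voom with sample weights 2, Pgk1 and Pgam1, all lower. Gapdh, which oxidises glyceraldehyde 3-phosphate, measured 4538, 4731, 5480 and 4359 CPM in Sept2C111A, against 5208, 4563, 5223 and 4952 CPM in WT libraries. The groups overlapped across nearly their whole range, and the 95% interval of the log2 fold change was -0.28 to 0.15. Pgam1, the mutase that moves the phosphate group, measured 712 ± 54.5 CPM in Sept2C111A and 837 ± 28.7 CPM in WT libraries without overlap (log2 fold change -0.23, edgeR adjusted p 0.071). Pgk1, the first ATP-forming kinase of the pathway, measured 758 ± 78.3 and 891 ± 62.0 CPM (edgeR adjusted p 0.13).

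The remaining genes of that stretch overlapped between the genotypes. Eno1, the enolase of most tissues, measured 1497 ± 227 CPM in Sept2C111A and 1664 ± 127 CPM in WT libraries, and Eno2, the enolase named for neurons, 15.0 ± 2.80 and 17.3 ± 0.759 CPM. Pkm, the pyruvate kinase gene, measured 2334 ± 318 CPM in Sept2C111A and 2428 ± 181 CPM in WT libraries, and Ldha, which reduces pyruvate to lactate, 1166 ± 92.5 and 1267 ± 76.3 CPM. Their adjusted p ran from 0.34 to 0.77 by edgeR. Many of these enzyme genes have processed pseudogenes or close copies in the mouse genome, so their separate levels depend on how the authors' counting shared out reads. Eno1b, a near copy of Eno1, was listed at 0.237 CPM or less in every library.

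Per kilobase of transcript, the 5 most abundant genes of the pathway stood in the same order in both genotypes. Gapdh stood highest at 3364 ± 347 CPM per kilobase in Sept2C111A and 3512 ± 217 in WT libraries, then Aldoa at 1799 ± 178 and 1870 ± 81.5, Pkm at 960 ± 131 and 998 ± 74.3, Eno1 at 738 ± 112 and 821 ± 62.7 and Ldha at 643 ± 51.0 and 698 ± 42.1. The ranges of Pkm and Eno1 overlapped in Sept2C111A libraries, and those of Eno1 and Ldha in both genotypes. Pgk1, Tpi1, Pgam1 and Gpi1 lay together between 398 and 415 in Sept2C111A and between 404 and 488 in WT libraries. Transport and the committed steps stood lower, with Slc16a3 at 99.6 ± 7.15 and 121 ± 6.31, Pfkl at 94.3 ± 12.5 and 111 ± 5.14 and Slc2a1 at 78.8 ± 6.17 and 106 ± 7.03 CPM per kilobase in Sept2C111A and WT libraries. Pfkl and Slc2a1 lay within their spread of each other in WT libraries. Transcript lengths are those of the longest protein-coding GENCODE M21 transcript, which need not be the one these cells use.

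**Figure D3:**
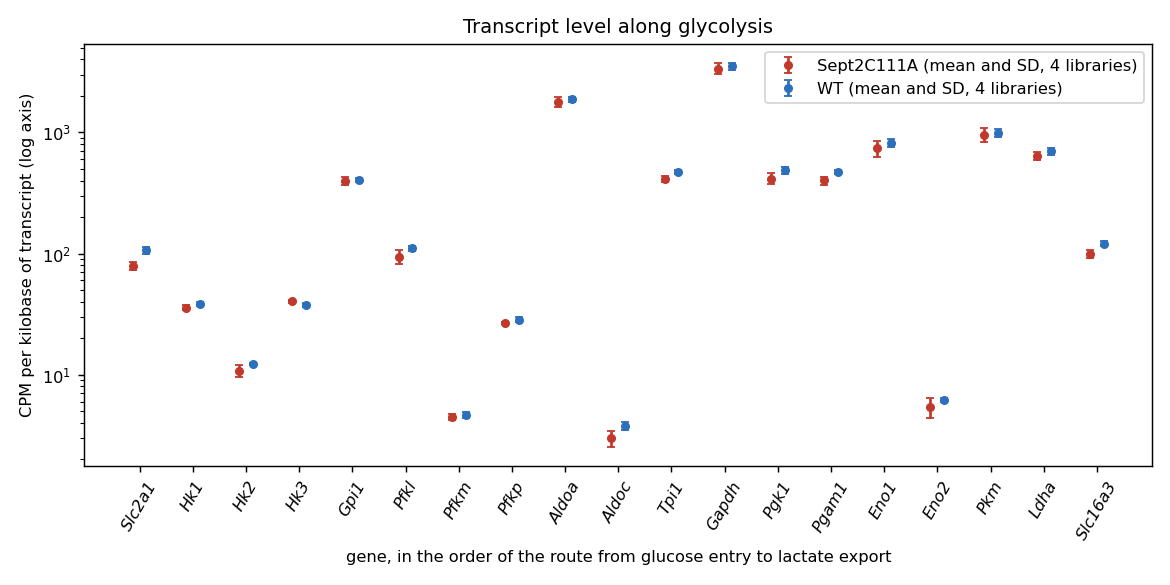
CPM per kilobase of transcript on a log axis for 19 genes in the order of the pathway, from glucose entry to lactate export, as mean and SD over 4 libraries, with Sept2C111A to the left of WT. Gapdh at 3364 and 3512 is the highest point in both genotypes. The points of Slc2a1 and Slc16a3 are set apart between genotypes by more than their SD, as are those of others such as Tpi1 and Pgam1.

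Hif1a and the 2 prolyl hydroxylase genes did not pass the test in edgeR, while DESeq2 called Egln1 and Egln3 lower and limma voom with sample weights Egln1. Hif1a, the oxygen-regulated subunit of HIF-1, measured 188, 154, 134 and 219 CPM in Sept2C111A, against 185, 206, 186 and 169 CPM in WT libraries. The Sept2C111A libraries enclosed the whole WT range, with library 4 highest and library 3 lowest, and the log2 fold change of -0.10 had a 95% interval of -0.43 to 0.22. Leaving out Sept2C111A library 3 gave a log2 fold change of 0.0061. Egln1, the main hydroxylase that marks HIF-1α for degradation, measured 115 ± 4.23 CPM in Sept2C111A and 129 ± 2.43 CPM in WT libraries without overlap (edgeR adjusted p 0.092). Egln3, a hydroxylase gene that is itself a HIF target, measured 25.1 ± 4.69 and 34.6 ± 4.73 CPM, a log2 fold change of -0.46 (edgeR adjusted p 0.068). It passed without Sept2C111A library 1 or library 4 (edgeR adjusted p 0.043 and 0.034).

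Of the 13 HIF targets outside glycolysis, Ero1a fell and the others did not pass, with 6 lower and 2 higher at an unadjusted p under 0.05. DESeq2 also called Bnip3, P4ha1 and Ndrg1 lower, and limma voom with sample weights Bnip3 and Ndrg1 lower and Mxi1 higher. Ero1a encodes an endoplasmic reticulum oxidase that helps form disulfide bonds, and lies on chromosome 14 at 45283087 to 45318572. It measured 161, 144, 134 and 156 CPM in Sept2C111A, against 189, 177, 179 and 178 CPM in WT libraries. All Sept2C111A libraries lay below all WT libraries, library 3 furthest. Ero1a fell by 17.6% (log2 fold change -0.28, SE 0.069; edgeR adjusted p 0.036). Its call was lost without Sept2C111A library 2 or any single WT library (edgeR adjusted p 0.074 to 0.122), and without Sept2C111A libraries 2 and 3 together the log2 fold change was -0.19 (0.113).

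P4ha1, a collagen prolyl hydroxylase subunit and the most abundant target by CPM, measured 236, 209, 210 and 223 CPM in Sept2C111A, against 265, 250, 255 and 242 CPM in WT libraries. The groups did not overlap, and the edgeR adjusted p was 0.073. Its relative P4ha2 measured 79.4 ± 7.97 CPM in Sept2C111A and 94.7 ± 10.1 CPM in WT libraries. Ndrg1, a stress-response gene, measured 30.4 ± 1.60 and 37.1 ± 3.31 CPM without overlap (log2 fold change -0.28, edgeR adjusted p 0.055). Its call was made without Sept2C111A library 4 or WT library 2 (edgeR adjusted p 0.028 and 0.034). Bnip3, a mitophagy receptor gene, measured 150 ± 12.5 CPM in Sept2C111A and 177 ± 7.72 CPM in WT libraries without overlap (edgeR adjusted p 0.070), and passed without Sept2C111A library 4 (0.032). The related Bnip3l measured 98.9 ± 7.12 and 101 ± 0.921 CPM. Pdk1, the kinase that holds pyruvate back from mitochondria by inhibiting pyruvate dehydrogenase, measured 46.0 ± 4.49 CPM in Sept2C111A and 53.9 ± 2.71 CPM in WT libraries (edgeR adjusted p 0.11), and passed without Sept2C111A library 4 (0.044).

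A few targets lay on the other side. Vegfa, the vascular growth factor gene, measured 121 ± 15.7 CPM in Sept2C111A and 107 ± 3.73 CPM in WT libraries (edgeR adjusted p 0.25). It stood at 99.0 CPM in Sept2C111A library 3 and at 122 to 134 CPM in the other Sept2C111A libraries, and without library 3 it passed, at a log2 fold change of 0.26 (edgeR adjusted p 0.025). Mxi1, a MAX-binding antagonist of MYC, measured 41.7 ± 2.94 and 36.2 ± 1.46 CPM without overlap (log2 fold change 0.21, edgeR adjusted p 0.096), and Ankrd37, an ankyrin repeat gene, 4.90 ± 0.536 and 4.02 ± 0.300 CPM, also without overlap (edgeR adjusted p 0.18). The remaining targets were Adm, the adrenomedullin gene, at 7.99 ± 2.39 CPM in Sept2C111A and 9.64 ± 1.96 CPM in WT libraries, the histone demethylase gene Kdm3a at 60.4 ± 10.6 and 63.2 ± 5.75 CPM, and the mitochondrial Higd1a at 31.8 ± 2.67 and 34.0 ± 2.68 CPM.

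**Figure D4:**
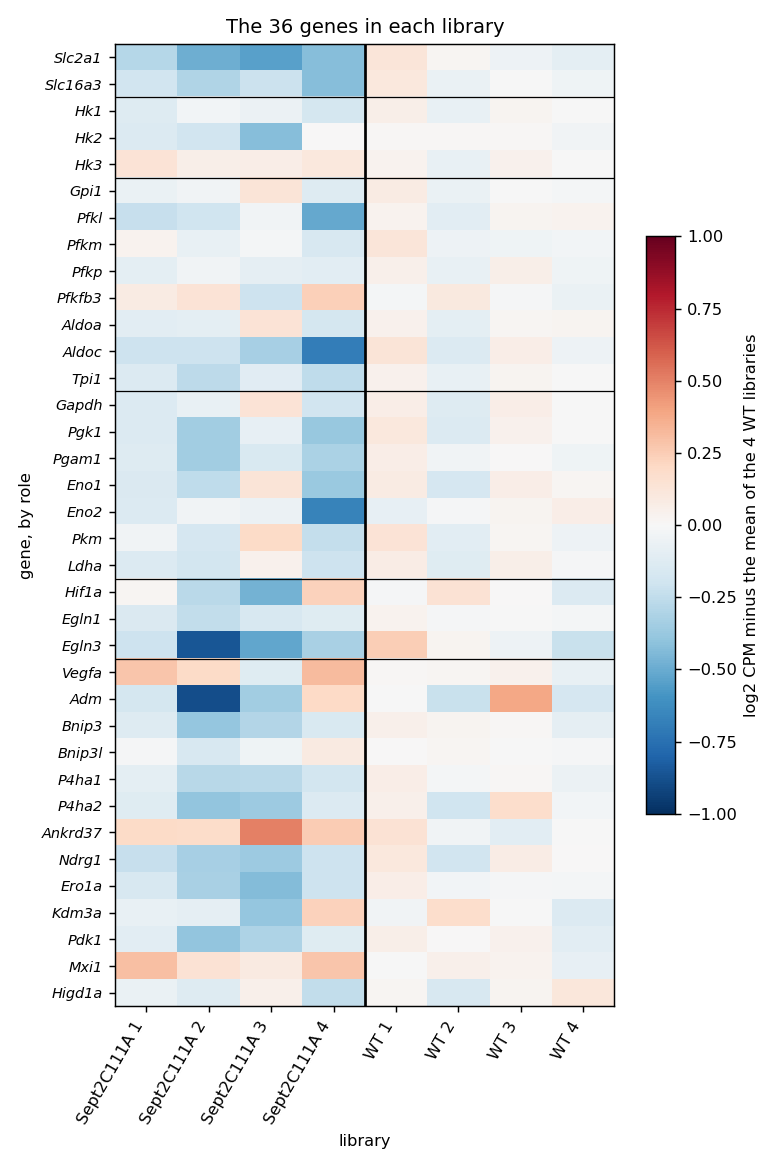
Log2 CPM of the 36 genes in each library minus the mean of the 4 WT libraries, by role from transport at the top to HIF targets at the bottom, with Sept2C111A libraries on the left. Blue is lower and red higher; Slc2a1, Slc16a3 and Ero1a are blue in all 4 Sept2C111A libraries, and libraries 3 and 4 of that genotype differ from each other in the enzyme genes and in Hif1a, Vegfa and Kdm3a.

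The glycolytic and the HIF genes followed different libraries within the Sept2C111A group. Among the 20 glycolytic genes, Sept2C111A library 4 was the lowest of its genotype for 14 and library 3 the highest for 9. Among the 16 HIF genes, library 2 was the lowest for 9 and library 3 for 6, while libraries 1 and 4 were the highest for 7 each. In WT, library 2 was the lowest for 15 of the 20 glycolytic genes and library 1 the highest for 13. The summed level of the 20 glycolytic genes was 17297, 16853, 19770 and 15938 CPM in Sept2C111A, against 19775, 17445, 19248 and 18639 CPM in WT libraries. Sept2C111A library 3 reached the level of the highest WT library, so the groups overlapped in this sum. The most abundant genes weigh most in it, Gapdh at 4777 ± 493 CPM in Sept2C111A and 4986 ± 309 CPM in WT libraries, then Aldoa and Pkm. Each of these was highest of its genotype in Sept2C111A library 3. Taken gene by gene, 18 of the 20 had a negative log2 fold change. Summed CPM do not share a common total under this scaling. The CPM of all tested genes summed to 1082300 in Sept2C111A library 3 and to 968590 to 987540 in WT libraries. The 16 HIF genes summed to 1441, 1264, 1238 and 1473 CPM in Sept2C111A, against 1543, 1506, 1522 and 1433 CPM in WT libraries. Libraries 2 and 3 were low and libraries 1 and 4 lay at the low end of WT.

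Within Sept2C111A, the stromal sum was lowest in libraries 2 and 3, as the HIF sum was. It was close in libraries 1 and 4 (8071 and 8171 CPM), of which library 4 had the lowest glycolytic sum of that genotype. In WT, library 2 was the lowest for both the stromal and the glycolytic sum, and library 4 for the HIF sum. Of 20 markers of fibroblasts and other stromal cells, 19 were tested, all 19 had a negative log2 fold change, 6 fell and 0 rose by edgeR (at an unadjusted p under 0.05, 15 lower and 0 higher). The 6 are 31.6% of the 19, where 3.03% of all tested genes were called lower, and all 6 calls were lost without WT library 1 and again without WT library 3. The 20 markers summed to 8071, 6281, 6058 and 8171 CPM in Sept2C111A, against 10039, 8398, 10623 and 9684 CPM in WT libraries. No marker of that list was at 0 in all libraries. Of 10 proliferation genes, 1 fell (Mki67, 10% of the list beside 3.03% of all tested genes) and 0 rose. At an unadjusted p under 0.05, 4 lay lower and 0 higher. They summed to 204 to 238 CPM in Sept2C111A and 244 to 260 CPM in WT libraries. Within that sum Mki67 measured 28.9 ± 3.64 CPM in Sept2C111A and 48.4 ± 1.46 CPM in WT libraries. Pcna, the most abundant of the 10, measured 152 ± 13.7 and 152 ± 6.10 CPM. Of 7 osteoclast markers, 4 were tested, 0 were called by edgeR (2 lower at an unadjusted p under 0.05), and they summed to 101 to 167 CPM in Sept2C111A and 160 to 207 CPM in WT libraries. Most of that sum was Mmp9, at 107 ± 29.2 CPM in Sept2C111A and 157 ± 20.9 CPM in WT libraries. Acp5 measured 9.27 ± 1.61 and 10.8 ± 0.213 CPM, and Ctsk 8.27 ± 1.12 and 9.57 ± 1.71 CPM. Markers of neutrophils, dendritic cells, lymphocytes, erythroid cells, mast cells and endothelium summed to at most 31.4 CPM for any of these lists in any library. Of these, the lymphocyte list was higher without overlap, at 29.7 to 31.4 CPM in Sept2C111A and 22.2 to 25.0 CPM in WT libraries, and Cd4 rose (edgeR adjusted p 0.0051). Cd4 supplied 21.1 ± 2.12 CPM of that sum in Sept2C111A and 14.5 ± 0.563 CPM in WT libraries. Among the 4 lymphocyte markers tested, 2 had a positive and 2 a negative log2 fold change. The endothelial list also did not overlap, at 7.12 to 7.52 CPM in Sept2C111A and 6.22 to 6.63 CPM in WT libraries, and Pecam1 rose (edgeR adjusted p 0.045), a call lost without any single library other than Sept2C111A library 4. Pecam1 supplied 4.02 ± 0.216 CPM of that sum in Sept2C111A and 2.92 ± 0.0968 CPM in WT libraries. The other tested endothelial markers were not called, with Cdh5 and Vwf lower (log2 fold change -0.51 and -0.42) and Kdr higher (0.32). The part of stromal, osteoclast or dividing cells in the fall of Slc2a1, Slc16a3 and Ero1a was not tested.

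**Figure D5:**
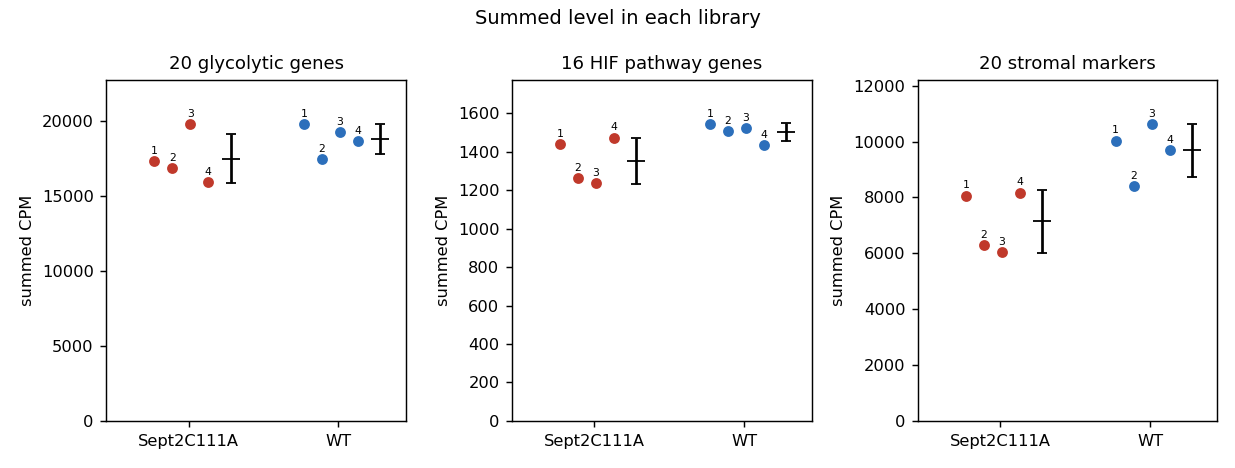
Summed CPM in each library of the 20 glycolytic genes, the 16 HIF genes and 20 stromal markers, with Sept2C111A to the left of WT; points are libraries numbered 1 to 4 and bars are mean and SD. Sept2C111A library 3 is highest of its genotype for the glycolytic genes at 19770 CPM and lowest for the HIF genes at 1238 CPM and the stromal markers at 6058 CPM.

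Neighbouring pathways held 0 to 4 calls in each direction. Of the genes tested, 16.7% were called for the pentose phosphate pathway, 18.2% for glycogen, 15.0% for other HIF targets and 4.35% to 7.14% for the other lists, beside 6.46% of all tested genes. Of 27 other glycolysis genes 23 were tested, 1 rose and 0 fell by edgeR (at an unadjusted p under 0.05, 2 higher and 7 lower), with a median log2 fold change of -0.06. The riser was Slc2a9, a urate and hexose transporter gene, at 14.3 ± 1.82 CPM in Sept2C111A and 11.1 ± 0.287 CPM in WT libraries. In the entry of pyruvate into mitochondria, 1 of 14 fell and 0 rose, namely Pcx, the pyruvate carboxylase gene, at 4.99 ± 1.13 and 7.79 ± 1.08 CPM. Among 20 genes of the tricarboxylic acid cycle 1 rose and 0 fell, Sdhd, a succinate dehydrogenase subunit, at 67.1 ± 4.34 and 53.2 ± 1.24 CPM. In these last lists 2 genes in each direction for pyruvate entry, and 3 higher and 1 lower for the cycle, had an unadjusted p under 0.05. Of 12 pentose phosphate genes 1 fell and 1 rose. These were Tkt, the transketolase gene, at 389 ± 16.4 CPM in Sept2C111A and 457 ± 11.2 CPM in WT libraries, and Rbks, a ribokinase gene, at 10.5 ± 2.11 and 6.21 ± 0.286 CPM. Of 11 tested glycogen genes 1 fell and 1 rose. These were Gys1, the glycogen synthase gene and a HIF target, at 87.5 ± 1.66 and 105 ± 4.61 CPM, and Gyg, the glycogenin gene that primes glycogen chains, at 80.7 ± 5.70 CPM in Sept2C111A and 50.5 ± 2.51 CPM in WT libraries (log2 fold change 0.68, edgeR adjusted p 0.00048).

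Among 21 tested regulators of the HIF pathway 1 fell and 0 rose (unadjusted, 5 lower and 1 higher), the chaperone gene Hsp90aa1 at 312 ± 20.6 CPM in Sept2C111A and 371 ± 4.97 CPM in WT libraries. Of 40 other HIF target genes tested, 4 fell and 2 rose (unadjusted, 15 lower and 6 higher), with a median log2 fold change of -0.10. Those that fell were Gys1, the growth factor gene Pdgfb (74.2 ± 7.77 and 97.9 ± 6.69 CPM), the mitochondrial adenylate kinase gene Ak4 (43.4 ± 5.94 and 58.5 ± 4.65 CPM) and the histone demethylase gene Kdm4b (41.1 ± 3.31 and 49.3 ± 1.3 CPM). Those that rose were the chemokine receptor gene Cxcr4, at 80.8 ± 9.29 CPM in Sept2C111A and 34.5 ± 3.98 CPM in WT libraries (log2 fold change 1.23, edgeR adjusted p 0.00028), and the galectin-3 gene Lgals3, at 2840 ± 518 and 2030 ± 104 CPM.

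The calls of Gyg, Rbks and Cxcr4 held when each library was left out in turn. Those of Tkt, Hsp90aa1, Ak4 and Lgals3 were lost without Sept2C111A library 2 or any single WT library (edgeR adjusted p 0.056 to 0.151), and those of Slc2a9, Pcx and Kdm4b also without Sept2C111A library 3 (0.059 to 0.145 for these 3 genes). Gys1 was lost without Sept2C111A library 2 or WT library 1, 3 or 4 (0.067 to 0.091), Pdgfb without Sept2C111A library 2 or WT library 1 or 3 (0.068 to 0.080), and Sdhd without WT library 1 or 3 (0.056 and 0.065).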

How the data were processed

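The files hold expected counts per gene symbol, deposited by the authors as 1 column per library, and not scaled for depth. RSEM 1.3.1, Bowtie2 and DESeq2 1.4.5 appear in the submitters' processing notes beside the build mm10, without a role. Per the labels' protocols, mRNA was selected on oligo(dT) beads. The sources used here give no annotation, strand setting or gene filter, so a gene and its antisense partner may share reads.

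Expected counts were rounded, filtered with filterByExpr (minimum count 10), scaled by TMM and fitted with edgeR 4.0.16 in R 4.3.3 (quasi-likelihood F test, two-sided, genotype as the only term, Benjamini-Hochberg over 12462 genes, called under 0.05). The SE is the log2 fold change over the square root of F, and the 95% intervals use 6 degrees of freedom. Alternatives covered scaling, filters, DESeq2 1.42.0, limma 3.58.1 voom, a replicate block, a stricter threshold and libraries left out. The fit was tested on simulated counts. No pair of libraries agreed within sampling noise (mean chi-square per gene at least 3.87, where noise gives 1).

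The members and gene lists were chosen with earlier results of these data known. By the naming rule, called members and the most abundant of each role are given library by library, and up to 6 called genes per neighbouring list are named; Hk3 was added after its values were seen. Gene coordinates and promoters come from RefSeq on GRCm38.p6, and transcript lengths from GENCODE M21.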

Additional observations from a re-analysis of the deposited data

Results flagged for a closer look

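A library lay far from the other 3 of its genotype, by Dixon's ratio of its gap to the group's range, for 5 of 72 combinations of gene and genotype, and chance alone gives about 1 in 20. Eno2 stood at 10.9 CPM in Sept2C111A library 4, against 15.8 to 16.9 CPM in the other Sept2C111A libraries (ratio 0.845). In WT, library 2 was low for Pfkl, at 385 CPM beside 422 to 425 CPM (ratio 0.917), and for Aldoa, at 2710 CPM beside 2941 to 2986 CPM (ratio 0.841). WT library 1 was high for Pfkm, at 14.6 CPM beside 13.0 to 13.2 CPM (ratio 0.866). WT library 4 was low for Hk2, at 66.0 CPM beside 68.0 to 68.1 CPM (ratio 0.958), where the gap is small in size.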

How the results depend on the processing

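Settings that refitted the data changed the number of calls more than the fold changes. Of the 36 genes, 30 kept the sign of their log2 fold change under all 16 alternatives, and 16 were called under at least 1. Slc2a1 was called lower in each of them and also at an adjusted p under 0.01. With edgeR on all 8 libraries, 805 genes were called and 3 of the 36 lower (2 glycolytic, 1 HIF). DESeq2 called 1402 genes and 10 of the 36 lower (4 and 6), beside 5.94% of its tested genes; limma voom with sample weights called 1343 and 10 lower (6 and 4) and 1 higher, beside 5.44% lower. At an adjusted p under 0.01, 220 genes and 1 of the 36 remained (1 glycolytic, 0 HIF). With no filter on low counts, 1 glycolytic gene was called, Slc16a3 being lost (adjusted p 0.052). Without Sept2C111A libraries 2 and 3, 492 genes were called, 2 of the 36 lower (Slc2a1, Pfkl), 2 higher (Vegfa, Mxi1) and 0 HIF genes lower; Hif1a, Adm, Bnip3l and Kdm3a then had log2 fold changes of 0.13, 0.0057, 0.039 and 0.083, with signs reversed. With each library left out in turn, the called genes numbered 266 to 2077, members higher 0 to 1, members lower 1 to 8, glycolytic members lower 1 to 3 and HIF members lower 0 to 5, and the median log2 fold change of the 36 ran from -0.17 to -0.12. Without Sept2C111A library 4, which gave the 8, 7.81% of all tested genes were called lower. In these fits Gpi1, Pkm, Hif1a, Bnip3l and Kdm3a changed sign, with log2 fold changes of -0.075 to 0.018, -0.15 to 0.0071, -0.23 to 0.0061, -0.066 to 0.017 and -0.17 to 0.029. With the replicate number as a block (replicate block), 494 genes, 1 of the 36 lower (1 glycolytic, 0 HIF) were called; the deviations of same-numbered libraries correlated at 0.137, 0.0956, -0.023 and -0.237, so the numbers were not taken as pairs. The cause of these differences was not tested. Rescaling by relative log expression or without the 100 most abundant genes called the same 3 members.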
